A study of Homo sapiens with 9 samples.

Results

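10 genes that make microRNAs or act with them were followed in MP41 cells after transfection of a synthetic miR-16. They were AGO1, AGO2, AGO3, AGO4, DICER1, DROSHA, DGCR8, XPO5, TNRC6A and TNRC6B, taken from the deposited table by their gene symbols. All 10 were among its 14839 genes. MP41 is an established cell line of uveal melanoma, a tumour of the pigment cells of the eye, and carries a mutated GNA11. The cells, all of this 1 line, were transfected with a lipid reagent carrying 66 nM of synthetic miR-16 or of miR-CTR, the control, and polyA RNA was sequenced at 6, 12, 24 and 48 h. A further library, labelled with the control mimic, was taken at 0 h, before transfection. There was 1 library for each of the 9 conditions, so no difference below has a replicate check, the variation between cultures is unknown, and no p-value is given.

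MicroRNAs are short RNAs that lower the output of messenger RNAs to which they pair. DROSHA, an RNase, and DGCR8, its RNA-binding partner, cut the hairpin out of the primary transcript in the nucleus. XPO5 carries the hairpin to the cytoplasm, and DICER1 cuts it to a duplex. An Argonaute protein (AGO1 to AGO4) takes up 1 strand, and only AGO2 among them is known as an efficient slicer of RNA. TNRC6A and TNRC6B, of the GW182 family, bind Argonaute and recruit the enzymes that shorten the polyA tail and remove the cap. A synthetic mimic enters at the Argonaute step without needing DROSHA, DGCR8 or XPO5. Mature microRNAs have no polyA tail, so these libraries measured the machinery's messenger RNAs and not miR-16.

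The mature sequence of miR-16 (RefSeq, GRCh38.p14) is shown because the letters searched for in the 3′UTRs follow from it. It is encoded by MIR16-1 on chromosome 13, reverse strand, from 50049027 to 50049048, and by MIR16-2 on chromosome 3, forward strand, from 160404754 to 160404775. The seed, bases 2 to 8, is in capitals. RefSeq's table held 7 mature human microRNAs with this seed, of which miR-15a, miR-195 and miR-424 are given for comparison.
hsa-miR-16-5p: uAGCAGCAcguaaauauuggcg
hsa-miR-15a-5p: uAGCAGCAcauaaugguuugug
hsa-miR-195-5p: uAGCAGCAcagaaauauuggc
hsa-miR-424-5p: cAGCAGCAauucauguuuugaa

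A seed match was TGCTGCTA (8mer), TGCTGCT without the final A (7mer-m8) or GCTGCTA without the first T (7mer-A1), read on the transcript strand of the longest annotated 3′UTR (GENCODE version 29, GRCh38). The matches of the 2 members that were lower with miR-16, AGO1 and DICER1, are shown first, with the bases before and after in lower case. AGO1 lies on chromosome 1, forward strand, from 35869808 to 35930528, and its 3 matches are in a 3′UTR of 10921 bases. DICER1 lies on chromosome 14, reverse strand, from 95086228 to 95158010, and its 2 matches are in a 3′UTR of 4270 bases.
AGO1 7mer-m8, chr1:35921204-35921210: aggctggggaatttTGCTGCTc
AGO1 first 8mer, chr1:35929036-35929043: acaaatatactgaaTGCTGCTAt
AGO1 second 8mer, chr1:35929551-35929558: tttaccctgtcagaTGCTGCTAc
DICER1 first 7mer-m8, chr14:95088000-95088006: tatgaacgcttttgTGCTGCTg
DICER1 second 7mer-m8, chr14:95087519-95087525: atgtggtttggcctTGCTGCTg

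The values were on the scale on which the authors deposited them, log2 of the normalized reads plus 1. The recovered reads amounted to between 20270000 and 27370000 per library, and library medians lay between 9.13 and 9.17. The miR-16 value minus its time-matched miR-CTR value was the difference (logFC), averaged over 6 and 12 h for the early window and over 24 and 48 h for the late window. A gene was called lower or higher when the logFC was past 0.5 in size. Errors are standard errors from the reads alone and cover counting error only. All 7 melanocyte markers looked up, among them MITF, PMEL and MLANA, had values between 12.29 and 17.88. Of 10 markers of fibroblasts, leukocytes, epithelium and endothelium, only COL1A1 and CD68 were in the table, at 5.46 to 8.86.

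Late after transfection, AGO1 and DICER1 were lower with miR-16 and the other 8 members were within 0.5 of the control. Late lower calls made up 5.73% of all genes, and 2 of the 10 members were among them. The corresponding share of late higher calls was 7.76%, and no member was among those. The median late logFC was −0.095 over the members and 0.005 over all genes. In the early window 3.48% of all genes were past 0.5 in either direction, and no member was. With 10 genes, these counts describe the members and no more.

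**Figure D1:**
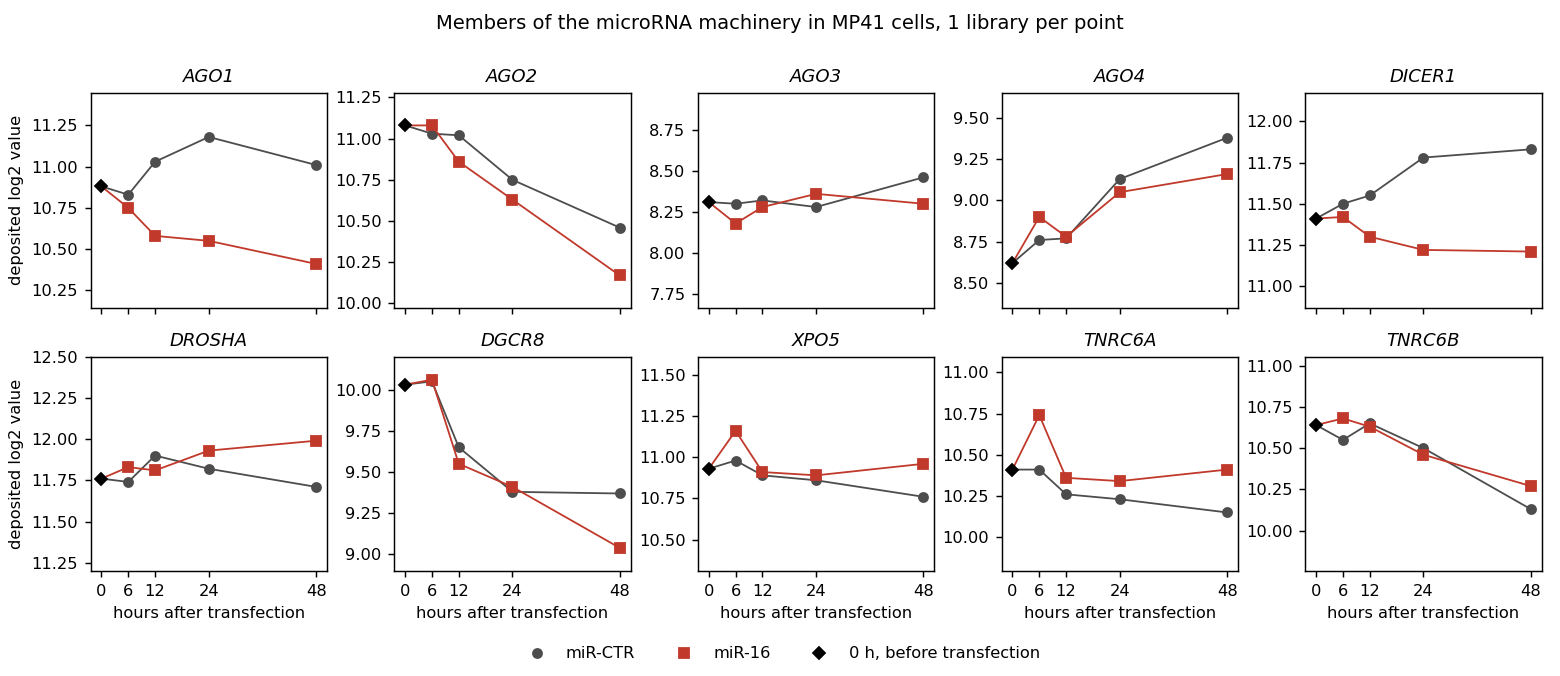
Deposited log2 value (vertical axis, every panel spans the same 1.3 log2 units) of each member against hours after transfection, with 1 library per point. Squares are miR-16, circles miR-CTR and the diamond the 0 h library. In AGO1 and DICER1 the 4 miR-16 values lie below the 4 miR-CTR values, and in the other panels the series cross or stay close.

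AGO1 holds a microRNA strand, which guides it to target RNAs. Its value was 10.88 at 0 h. With miR-16 it was 10.75, 10.58, 10.55 and 10.41 at 6, 12, 24 and 48 h. With miR-CTR it was 10.83, 11.03, 11.18 and 11.01 at these times. The highest miR-16 value was under the lowest miR-CTR value, so the series did not overlap. In this order of times the logFC was −0.08 ± 0.05, −0.45 ± 0.047, −0.63 and −0.60. The late logFC of −0.615 ± 0.035 corresponds to a change of −34.7%, and AGO1 ranked 497 from the lowest among the 14839 genes. Behind each value stood 1287 to 2416 reads.

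DICER1, which makes the duplex from the hairpin, had a value of 11.41 at 0 h. With miR-16 it was 11.42, 11.30, 11.22 and 11.21 in order of time. With miR-CTR it was 11.50, 11.55, 11.78 and 11.83. Here too the series did not overlap, and the distance between them widened at each time. The logFC went from −0.08 through −0.25 and −0.56 to −0.62. The late logFC was −0.59 ± 0.027, a change of −33.6%, which ranked 566 from the lowest. Reads per library were 2241 to 4266.

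Both genes were past −0.5 at 24 h and at 48 h, as were 2.78% of all genes. They were the only members lower with miR-16 at all 4 times, which held for 16.7% of all genes, and the only ones whose miR-16 values were all below the miR-CTR values, which held for 3.75%. Against the 0 h library, the miR-16 and miR-CTR series of both genes moved apart in opposite directions. Late with miR-16, AGO1 was 0.40 below 0 h and DICER1 was 0.195 below it. Late with miR-CTR, AGO1 was 0.215 above 0 h and DICER1 was 0.395 above it. For DICER1, the distance from 0 h was thus larger with miR-CTR than with miR-16. Culture time and transfection also changed from 0 h, so these distances do not divide the logFC between the mimics. With the 0 h library as the reference neither gene passed 0.5.

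**Figure D2:**
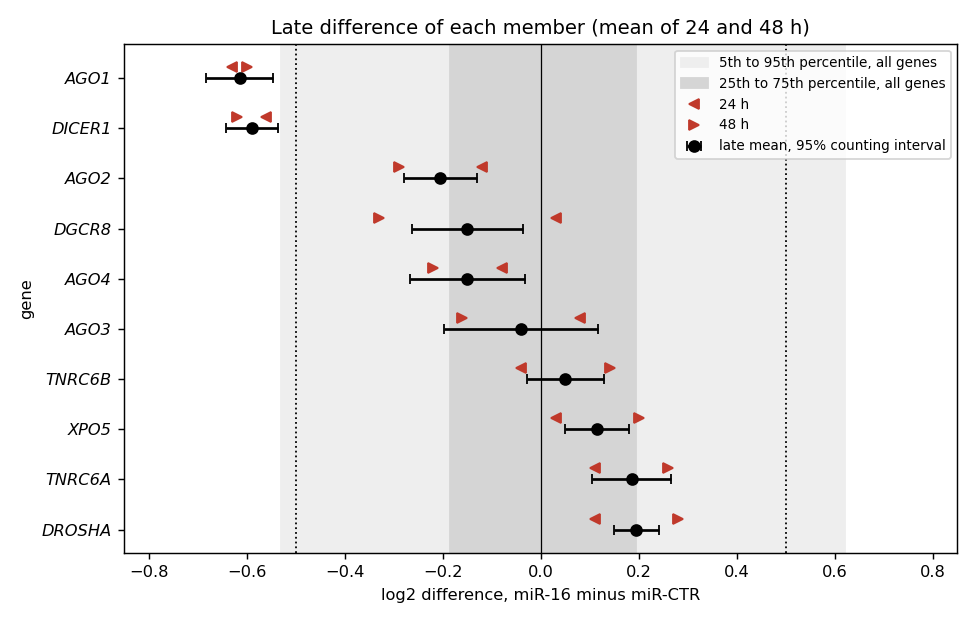
Late logFC (horizontal axis, log2, miR-16 minus miR-CTR) of each member as a dot with its 95% counting interval, with the 24 h and 48 h values as triangles above it. Grey bands give the 25th to 75th and 5th to 95th percentiles of all genes, and dotted lines mark 0.5 in size. AGO1 (−0.615) and DICER1 (−0.59) lie below the 5th percentile of −0.53 and the other 8 members lie between −0.205 and 0.195.

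The other Argonautes did not share the late value of AGO1. AGO2, the slicer, was 11.08 at 0 h. Its values were 11.08, 10.86, 10.63 and 10.17 with miR-16 and 11.03, 11.02, 10.75 and 10.46 with miR-CTR. Both series went down with time, so that the ranges overlapped widely, and the late logFC was −0.205 ± 0.038. The logFC at 48 h, −0.29, was the lowest of the 4 times.

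AGO3 was 8.31 at 0 h, 8.18 to 8.36 with miR-16 and 8.28 to 8.46 with miR-CTR. Its late logFC was −0.04 ± 0.08, within the counting error, from 251 to 412 reads per library. AGO4 was 8.62 at 0 h. It was 8.90, 8.78, 9.05 and 9.16 with miR-16 and 8.76, 8.77, 9.13 and 9.38 with miR-CTR, higher late than early in both series. Its logFC was 0.14 and 0.01 at 6 and 12 h and −0.08 and −0.22 at 24 and 48 h. The late value was −0.15 ± 0.06.

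Set per kb of the longest annotated transcript, which allows levels of different genes to be compared, AGO1 and AGO2 were close at 0 h, at 137.4 and 148.4 normalized reads per kb. AGO4 followed at 55.1 and AGO3 at 16.1. AGO1 thus made up 38.5% of the summed Argonaute level per kb at 0 h and AGO2 41.6%. At 48 h, the AGO1 share was 36.2% with miR-16 and 42.0% with miR-CTR. The AGO2 share at that time was 28.8% and 26.9%, and the AGO4 share 29.3% and 26.1%. The summed level per kb at 48 h was 274.3 with miR-16 and 358.2 with miR-CTR. These shares depend on the length used. With the median length over a gene's annotated transcripts, which for AGO2 is 518 bases because many short ones are annotated, AGO2 took 74.8% and AGO1 8.4% at 0 h. Within either definition, the AGO1 share of the miR-16 libraries was below that of their miR-CTR counterparts 4 times out of 4. At 12, 24 and 48 h AGO1 had the lowest logFC of the Argonautes. Its lower share at these times follows from that under any length and adds nothing to the logFC.

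The nuclear pair behaved differently from each other. DROSHA was 11.76 at 0 h. It was 11.83, 11.81, 11.93 and 11.99 with miR-16 and 11.74, 11.90, 11.82 and 11.71 with miR-CTR. The late logFC of 0.195 ± 0.024 was the highest of the members. The series overlapped, as the miR-16 value at 12 h was below the miR-CTR value of that time.

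DGCR8 was 10.03 at 0 h, and went from 10.06 at 6 h to 9.55, 9.41 and 9.04 with miR-16. With miR-CTR it went from 10.05 to 9.65, 9.38 and 9.37. The late logFC of −0.15 ± 0.058 came from 48 h, where the difference was −0.33, since that at 24 h was 0.03. The largest range of any member over the 9 libraries, 1.02, was that of DGCR8. XPO5, the exporter, lay between 10.89 and 11.16 with miR-16 and between 10.76 and 10.98 with miR-CTR. It was higher with miR-16 at all 4 times, by 0.18, 0.02, 0.03 and 0.20, and the late logFC was 0.115 ± 0.033. The 95% counting intervals at 12 and 24 h included 0. How many of all genes were higher at all 4 times was not counted, here or for TNRC6A and TNRC6C below.

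The GW182 members were within 0.5 of the control at every time. TNRC6A was 10.41 at 0 h, 10.74, 10.36, 10.34 and 10.41 with miR-16, and 10.41, 10.26, 10.23 and 10.15 with miR-CTR. Its logFC was positive at all 4 times and highest at 6 h, at 0.33, and the late value was 0.185 ± 0.041. At 12 and 24 h the 95% counting intervals included 0. TNRC6B was 10.64 at 0 h and then lay between 10.27 and 10.68 with miR-16 and between 10.13 and 10.65 with miR-CTR. The logFC was negative at 12 and 24 h, at −0.02 and −0.04, and the late value of 0.05 ± 0.04 had a 95% counting interval, −0.029 to 0.129, that included 0.

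Per kb of the longest transcript, the order at 0 h from the highest was DROSHA (653.6 normalized reads per kb), XPO5 (363.5), DICER1 (263.3), DGCR8 (222.5), TNRC6A (161.1), AGO2 (148.4), AGO1 (137.4), TNRC6B (87.2), AGO4 (55.1) and AGO3 (16.1). Over the 9 libraries, the ranges of DICER1 (229.2 to 352.3) and XPO5 (323.1 to 426.4) overlapped, as did those of AGO1 (99.2 to 169.2) and AGO2 (78.9 to 148.4). DGCR8 (111.9 to 227.2) and TNRC6A (134.5 to 202.6) overlapped with each other and with AGO1 and AGO2. TNRC6B (61.2 to 89.7) and AGO4 (55.1 to 93.5) overlapped with each other and with AGO2. DROSHA stayed above every other member, from 631.3 to 766.6, and AGO3 below, from 14.7 to 17.8. With the median transcript length DROSHA and AGO3 kept ranks 1 and 10 at 0 h. DGCR8 moved from rank 4 to rank 9, AGO2 from 6 to 2 and AGO4 from 9 to 6. The order between these members thus rests on the length used. Over the 9 libraries DROSHA again stayed above every other member, but AGO3 (167.4 to 203.4) then overlapped with DGCR8 (166.0 to 337.0).

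Change from the 0 h library was larger than the difference between the mimics for several members. As the 0 h library was taken before transfection, culture time, transfection and mimic cannot be told apart in it, and both series share it. Late with miR-CTR, DGCR8 was lower by more than 0.5, as were 9.79% of all genes. AGO4 was higher by more than 0.5 in that series, as were 11.0% of all genes. Late with miR-16, AGO2 and DGCR8 were past −0.5, as were 11.7% of all genes. No member was past 0.5 upward there, against 14.1% of all genes.

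For DGCR8 the late value minus 0 h was −0.655 ± 0.06 with miR-CTR and −0.805 ± 0.063 with miR-16. For AGO2 it was −0.475 ± 0.04 and −0.68 ± 0.043. For AGO4 it was 0.635 ± 0.084 and 0.485 ± 0.086. In each of these genes the distance from 0 h was larger than the distance between the mimics. TNRC6B was below 0 h by similar amounts, with −0.325 and −0.275. XPO5 was at −0.12 and −0.005, TNRC6A at −0.22 and −0.035, and AGO3 at 0.06 and 0.02. DROSHA was 0.005 above 0 h with miR-CTR and 0.20 above it with miR-16.

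**Figure D3:**
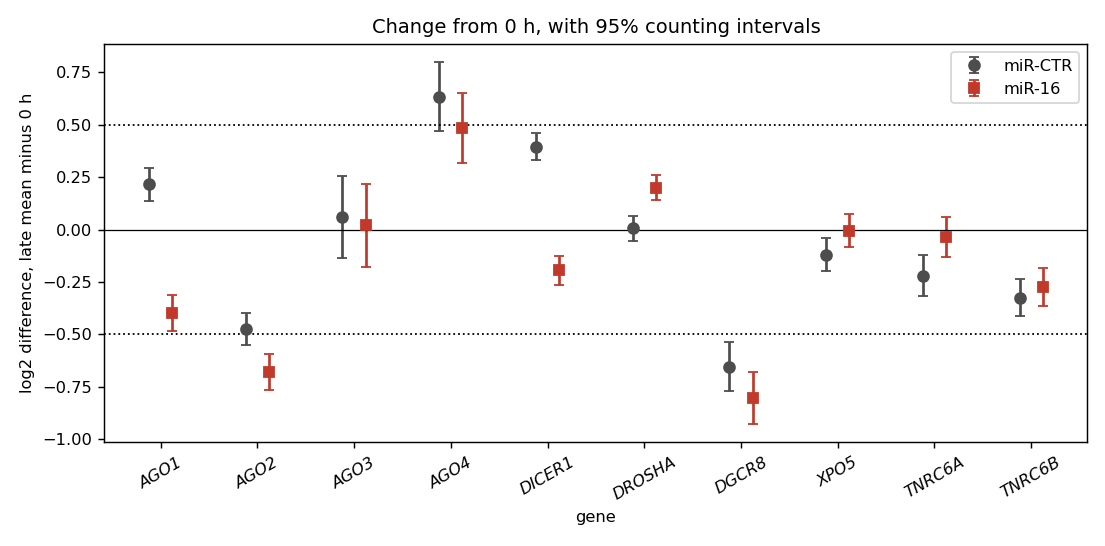
Late mean minus the 0 h value (vertical axis, log2) for each member, with miR-CTR as circles and miR-16 as squares, and 95% counting intervals. Dotted lines mark 0.5 in size. DGCR8 and AGO2 are low and AGO4 is high with both mimics, whereas AGO1 and DICER1 lie above 0 with miR-CTR and below 0 with miR-16.

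Seed matches to miR-16 were frequent among the members, and their presence or number did not single out the 2 that were lower. At least 1 match was present in 8 of the 10 members and in 29.3% of the 12015 protein-coding genes with a matched 3′UTR. The 3′UTRs of the members are long. Their median was 4277.5 bases, against 1411 over all these genes, and 9 of the 10 were above that value. Among the 1336 genes whose 3′UTR was within 0.8 to 1.25 times the length of that of DICER1, 53.3% had a match. Among the 175 genes near AGO1 in length, 80.0% had a match and 17.7% an 8mer.

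AGO2, AGO3 and AGO4 had 3 matches each, as many as AGO1, and their late logFC were −0.205, −0.04 and −0.15. The types differed, as AGO1 had 2 8mers and AGO3 had 1, while AGO2 and AGO4 had 7mer-m8 only. TNRC6B had 6 matches, a number reached by 0.2% of genes, with a late logFC of 0.05. DROSHA and TNRC6A had no match, and their late logFC were the 2 highest of the members, 0.195 and 0.185. XPO5 and DGCR8 had 1 match each. The 8mers of AGO3 and TNRC6B, the members outside AGO1 that had one, are shown beside the match of XPO5.
AGO3 8mer, chr1:36071183-36071190: tcccactagataatTGCTGCTAa
TNRC6B 8mer, chr22:40325188-40325195: tgtcctctgtaactTGCTGCTAt
XPO5 7mer-m8, chr6:43523402-43523408: ccactgagccctttTGCTGCTg

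These matches are in the same letters as those of AGO1 and DICER1. The AGO3 8mer starts at base 15438 of a 3′UTR of 16755 bases, and 1 of 3 annotated coding transcripts with a 3′UTR holds it. Each of the 3 AGO1 matches is in 1 of 2 such transcripts, with the 8mers starting at bases 9429 and 9944. The DICER1 matches are in 3 of 7 and the TNRC6B 8mer in 3 of 5. The values are per gene, so which of these transcripts MP41 cells carry was not measured.

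3 of the Argonaute genes are neighbours. On the forward strand of chromosome 1, AGO4 (35808172 to 35857890) is followed by AGO1 (35869808 to 35930528) and AGO3 (35930718 to 36072500), with late logFC of −0.15, −0.615 and −0.04. AGO2 is on chromosome 8, reverse strand, from 140520156 to 140635619. DROSHA is on chromosome 5 (31400497 to 31532196) and XPO5 on chromosome 6 (43522330 to 43576075), both on the reverse strand. DGCR8 (20080232 to 20111877) and TNRC6B (40044817 to 40335808) are on chromosome 22 and TNRC6A on chromosome 16 (24610209 to 24827632), all on the forward strand. These positions are those of GENCODE version 29 on GRCh38.

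Over all genes with a matched 3′UTR, the share called lower late was 16.0% of the 601 genes with an 8mer, 8.2% of those with a 7mer-m8 as the best match, 9.5% with a 7mer-A1, 4.1% with a 6mer alone and 3.5% with none of these. By number of matches it was 3.6% with 0, 8.0% with 1, 11.9% with 2, 13.6% with 3 and 20.4% with 4 or more. AGO1, which has 2 8mers, and DICER1, with 2 7mer-m8, were in the called minority of their classes.

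**Figure D4:**
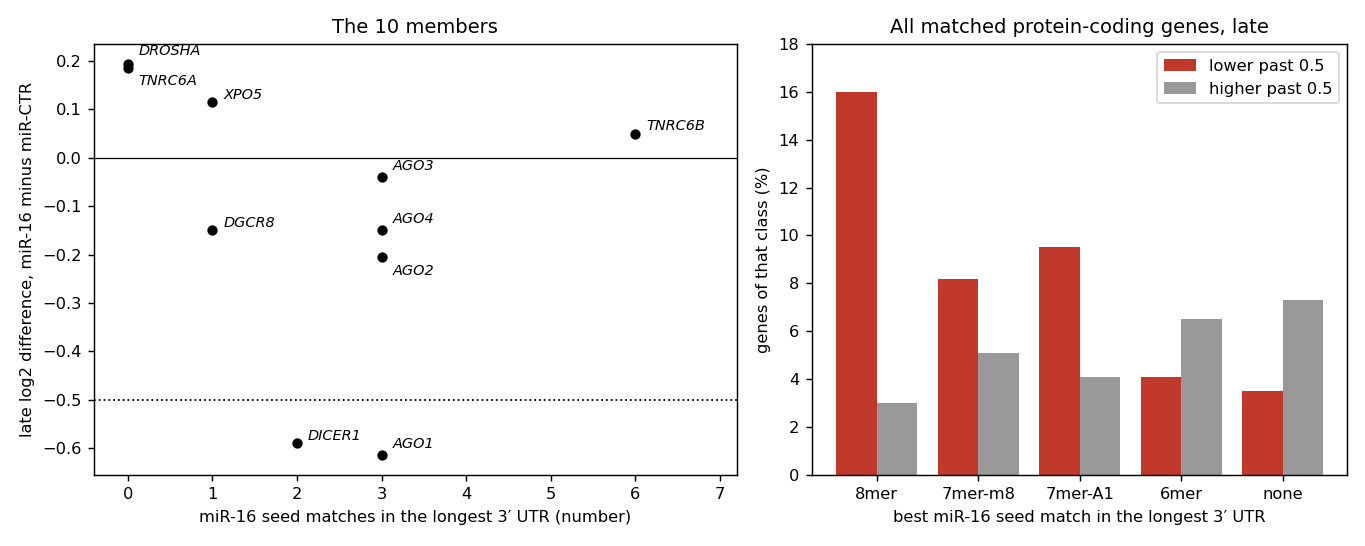
Left, late logFC of the members (vertical axis, log2) against the number of miR-16 seed matches in the longest 3′UTR (horizontal axis). Right, percentage of the genes of each class of best match that were lower (red) or higher (grey) past 0.5 in the late window. AGO1 and the other Argonautes have 3 matches each and differ in late logFC, and lower calls are most frequent (16.0%) among genes with an 8mer.

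Matches to the control mimic's seed were counted in the same way. The study's list of biotinylated oligonucleotides gives the sequence below under the name of miR-16 and that of miR-16 under the name of the control, so these names were taken as exchanged, and the transfected miR-CTR was assumed to have the same sequence.
control sequence: uUGUACUAcacaaaaguacug

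Its 8mer match is TAGTACAA, and with the 7-base forms defined as for miR-16, such matches were in 14.6% of genes with a matched 3′UTR, and 10.9% of those genes were called higher late, against 5.5% of the genes without even the 6mer. AGO2, AGO3, AGO4 and TNRC6B had 1 such match each. Apart from AGO1, these are also the members with the most miR-16 matches. Their logFC subtracts the miR-CTR value, and whether the control matches bear on it was not tested. AGO1 had only a 6mer, and DICER1 had none.

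Of 80 further genes of the pathway, 78 were in the table, 5 of them were lower and 4 higher late. That is 6.41% and 5.13%, near the shares over all genes given above, and their median late logFC was −0.053. Of the 12 Microprocessor partners none was past 0.5, and the largest difference in size was that of SRRT, which links the cap complex to DROSHA, at −0.225. None of the 3 export genes was past it, with NUP153 of the nuclear pore at −0.455. Among the 4 Dicer partners and editing genes, TARBP2, which holds the hairpin for DICER1, was lower, at −0.655 ± 0.045. Its logFC was −0.16, −0.56, −0.58 and −0.73 in order of time, without a 7mer or 8mer match to miR-16 in its longest 3′UTR.

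Among 11 genes of Argonaute loading and passenger strand removal, TSNAX, a subunit of the nuclease C3PO, was higher, at 0.875 ± 0.048. Of the 12 partners of Argonaute and GW182 in the table, the helicase MOV10 was lower, at −0.715 ± 0.029, and TNRC6C, the other GW182 gene, was higher, at 0.525 ± 0.061. TNRC6C was higher at each of the 4 times, by 0.67, 0.51, 0.51 and 0.54.

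Of 17 deadenylation genes, 2 were lower and 2 higher. CNOT6L, a catalytic deadenylase of the CCR4-NOT complex, was at −0.615 ± 0.061 and CNOT11, another subunit, at −0.58 ± 0.035. TOB1, an adaptor of the complex, was at 0.87 ± 0.042. PABPC1, which coats the polyA tail, was at 0.575 ± 0.006, a value that is uncertain because this gene has many processed copies in the genome. Of 12 genes of decapping and decay, DCP2, the decapping enzyme, was lower, at −0.86 ± 0.039, the lowest value of these lists. Its activator DCP1A was at −0.50, on the threshold and not past it. None of the 7 tailing and turnover genes in the table was past 0.5, and LIN28B, which blocks the processing of let-7, had the largest difference, 0.295. Of the 78 genes, 24 had a miR-16 match (30.8%, against 29.3% of all genes with a matched 3′UTR). Among the called genes, CNOT6L had 3, and MOV10 and TNRC6C had 1 each. LIMD1 and WTIP, partners of Argonaute and GW182 that were not called, had 6 and 3, with late logFC of −0.175 and 0.475.

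**Figure D5:**
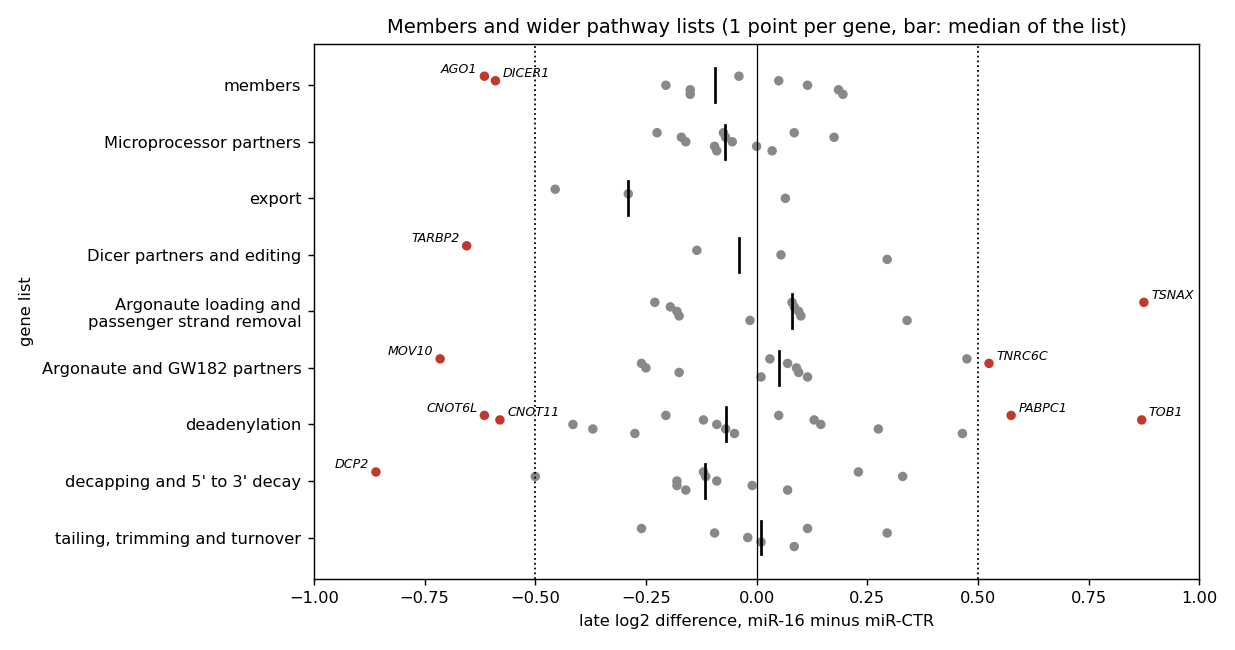
Late logFC (horizontal axis, log2) of the 10 members and of 78 further genes of the pathway by list, with 1 point per gene and a bar at the median of each list. Points past 0.5 in size are red and named. AGO1, DICER1, TARBP2, MOV10, CNOT6L, CNOT11 and DCP2 are past −0.5, and TSNAX, TNRC6C, PABPC1 and TOB1 past 0.5.

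The genes whose profiles over the 9 libraries were most like those of AGO1 and DICER1 were found by the root mean square difference of mean-centred log2 values. This choice used the same 9 libraries, so that values of these genes like those of AGO1 and DICER1 follow from it and are given as a description. For AGO1 they were ONECUT2 (0.053), WIBG (0.055) and WIPI2 (0.067). For DICER1 they were SECISBP2L (0.037), WWP1 (0.057) and PON2 (0.058). Their late logFC lay between −0.685 (PON2) and −0.515 (SECISBP2L). ONECUT2 had 3 miR-16 matches, WIPI2 and WWP1 had 1 each, and WIBG, SECISBP2L and PON2 had none. All 6 were above 0 h late with miR-CTR, by 0.075 (WIPI2) to 0.455 (WWP1), and below it with miR-16.

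Some reads may belong to neighbouring genes. Whether counting used strand is not given in the sources used here, and reads from antisense genes cannot then be told apart. Exons of genes on the other strand overlap 2.9% of the exonic bases of AGO1 (AL139286.2), 0.7% of DICER1 (DICER1-AS1), 4.1% of XPO5 (POLR1C) and 7.2% of DGCR8 (TRMT2A among them). DICER1-AS1 had 9 to 49 reads per library against 2241 or more for DICER1. The late logFC was 0.22 ± 0.07 for POLR1C and 0.155 ± 0.04 for TRMT2A, of the same sign as that of XPO5 and of opposite sign to that of DGCR8, respectively. The 4 Argonaute genes shared no stretch of 50 bases with each other in their annotated transcripts.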

How the data were processed

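PolyA RNA of MP41 cells was sequenced in 9 libraries, 1 per condition. Per the submitters' processing notes, reads were aligned to hg38/GRCh38 with STAR 2.4.0a and counted with featureCounts of Subread 1.5.0-p3. The normalization, annotation, strand setting and filter on low genes are not given in the sources used here. The authors deposited log2 values with 2 decimals. Each library had a unit, between 0.8531 and 1.1494, of which 100% of its distinct values up to 5 (log2) were integer multiples once exponentiated and reduced by 1, within the rounding of 2 decimals. The values are therefore log2 of size-factor-scaled reads plus 1, and this unit gave the reads behind the counting errors. The column codes T0, T1, T2, T4 and T5 were read in that order as the labelled times of 0, 6, 12, 24 and 48 h, and no column is coded T3.

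Nothing was normalized further. The threshold was 0.5 (log2), and the 10 members and further lists were chosen with earlier results of these data known. Genes named were all members, the further genes past 0.5 late (or the largest difference in size of a list without one), and the 3 nearest profiles to each called member. Other genes were named as markers or for overlap with a member, and DCP1A, LIMD1 and WTIP were named after their values were seen. Symbols (91.2% matched to 1 gene, 13528 in all) were joined to GENCODE version 29 on GRCh38, older symbols through the RefSeq table. Steps ran in Python 3.11.15 with pandas 2.3.3 and numpy 2.4.6. The recovery of the reads, the differences and their counting errors were tested on simulated data. These data held counting error only, so the test says nothing about variation between cultures.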

Additional observations from a re-analysis of the deposited data

Results flagged for a closer look

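The difference of AGO4 between the mimics had opposite signs in the 2 windows. At 6 and 12 h it was 0.14 and 0.01, whereas at 24 and 48 h it was −0.08 and −0.22, so that the late minus the early logFC was −0.225. The 95% counting intervals at 6, 12 and 24 h included 0, and so did that of the early window. Of the 4 times, only 48 h had an interval without 0, −0.378 to −0.062. This difference between the windows was not tested, as there was 1 library per condition.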

How the results depend on the processing

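AGO1 and DICER1 were the members called lower late under every scaling tried (quantile normalization, median centring and total count scaling). The same 2 were called with a pseudocount of 5, a 1.5-fold threshold, 24 h alone and 48 h alone. Calls at both times follow from those at the single times. Leaving out the lowest 25% of genes could change no call, as no member is among them. No member was called higher late under any of these settings, or early under the 3 scalings, the pseudocount or 12 h alone. The 1.5-fold threshold was applied to the deposited values only, and DICER1, at −0.59 ± 0.027, passed it by less than its counting error. Over the scalings and the pseudocount the late logFC was −0.614 to −0.58 for AGO1 and −0.589 to −0.559 for DICER1. None of the 40 late values of the members then changed sign, and the largest shift was 0.051. With the 0 h library as the reference, 2 members were again called lower, but they were AGO2 and DGCR8, and AGO1 and DICER1 were at −0.40 and −0.195. 5 members then had the opposite sign to their late logFC. The late logFC differs from these values by the change of the miR-CTR series from 0 h, and the cause of that change was not tested. The calls against 0 h were the same genes under the scalings and the pseudocount. Members with a miR-16 match numbered 3 with the 8mer alone and 8 with the 3′UTRs of all transcripts, and 9 with the 6mer counted too. Levels per kb moved for all 10 members with the median transcript length. The alternatives for the early window and for the change from 0 h were chosen after seeing the data. Counting errors were the largest for AGO3 (0.08) and AGO4 (0.06), the members with the fewest reads. The libraries were compared in 4 time-matched pairs, and no test over these pairs was made, since times are not replicates.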
